A study of Homo sapiens with 6 samples.

Results

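The proteasome is the large protease that degrades proteins tagged with ubiquitin. Its 20S core is a barrel of alpha rings around beta rings, whose catalytic beta subunits cut proteins. The 19S regulatory particle caps the barrel, recognises and unfolds substrates with a ring of ATPases and removes their ubiquitin. In blood cells inducible catalytic subunits can replace the constitutive ones to form the immunoproteasome, which supports antigen presentation. The genes described here are the protein-coding genes of the deposited table named PSMA, PSMB, PSMC, PSMD, PSME or PSMF with a number and nothing after it. There are 43 of them among its 29810 genes. PSMC3IP and PSME3IP1, which carry longer symbols and encode other proteins, were left out. PSMA8, a testis form of an alpha subunit, would fit the rule by its symbol. The search of the deposited table found no protein-coding entry with that symbol, so the 43 do not include it.

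The cells were Kasumi-1, an established human acute myeloid leukaemia line that carries a RUNX1-RUNX1T1 fusion. The mRNA of 6 samples was measured. The labels name 1 line with no further genotype, incubated for 48 h with control (3 samples) or with I1 (3 samples, 0.125 µM). I1 is known here only by that code name, and the labels do not say what the control was. Levels are given as FPKM, which scales the fragments of a gene by its exon length and by a library total, here between 16390742 and 18204408 fragments.

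The libraries had the markers of this line. MPO, an enzyme of myeloid granules, lay between 6361 and 9392 FPKM and CD34 between 29.4 and 54.6. Some markers were higher under I1 without overlap between the groups, a separation that 12.9% of the 11913 genes tested below also had. KIT had 149.5, 179.5 and 156.6 FPKM in control and 194.7, 203.3 and 189.7 under I1, and RUNX1T1 12.1, 14.4 and 15.3 against 17.5, 16.7 and 18.4. ALAS2, an erythroid enzyme, had at most 0.0265 FPKM in control and 0.143, 0.221 and 0.197 under I1, levels too low for it to be tested. The part of such shifts in the results below was not tested. Of markers of other cells, EPCAM (23.3 to 31.3 FPKM) and CD79B (3.10 to 8.82) had sizeable levels, CD3D reached 1.27, and KRT18, ALAS2, CD3E, COL1A1, CD14 and ITGAM stayed at or under 0.221 FPKM in every library. Control replicate 1 stood apart, at -43.8 on a first principal component that held 52.1% of the variance, with the other 5 libraries between -2.90 and 19.8. Values without that library are therefore given where they matter.

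Of the 43 genes, 38 passed the filter on low values, 1 FPKM or more in 3 or more libraries, and were tested. PSMA2, PSMA6, PSMB9, PSMB11 and PSMD9 did not. No proteasome gene passed an adjusted p of 0.05 by limma, 0 higher and 0 lower with I1, and 4 had an unadjusted p under 0.05. Over all 11913 tested genes 4 passed, or 0.0336%, and 9.57% had an unadjusted p under 0.05, a share close to that of the members. In bulk RNA, fewer cells that express a gene and less of its RNA per cell cannot be told apart. The estimates leaned downward. The median log2 fold change of the 38 genes, I1 minus control on log2(FPKM + 1), was -0.12, with 25 below 0 and 13 above, while the median of all tested genes was 0.03, with 45.5% below 0. In the 3 same-numbered pairs of samples the medians of the proteasome genes were -0.16, -0.06 and -0.07, against 0.09, 0.02 and 0.00 for all tested genes. The median stayed below 0 when any 1 library was left out, from -0.15 to -0.05.

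In 10 of the 38 genes, 26.3%, all 3 I1 libraries lay below all 3 controls, and in 0 genes did they all lie above. Over all tested genes 8.74% were separated in the lower and 12.9% in the higher direction. The 10 genes were PSMA7 of the alpha ring, PSMB4, PSMB5, PSMB6 and PSMB7 of the beta ring, the ATPases PSMC3 and PSMC5, and PSMD3, PSMD4 and PSMD8 of the 19S particle. Scaling the libraries by TMM factors, which assume that most genes are alike, raised the count to 14 lower and 0 higher, beside 12.0% lower and 10.4% higher among all tested genes. Without I1 replicate 2 the count was 19 lower, and without control replicate 2 it was 10 lower and 3 higher. The shares of all tested genes without these libraries are not given here, and smaller groups separate more easily. These counts are therefore not comparable with the counts and shares above.

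**Figure D1:**
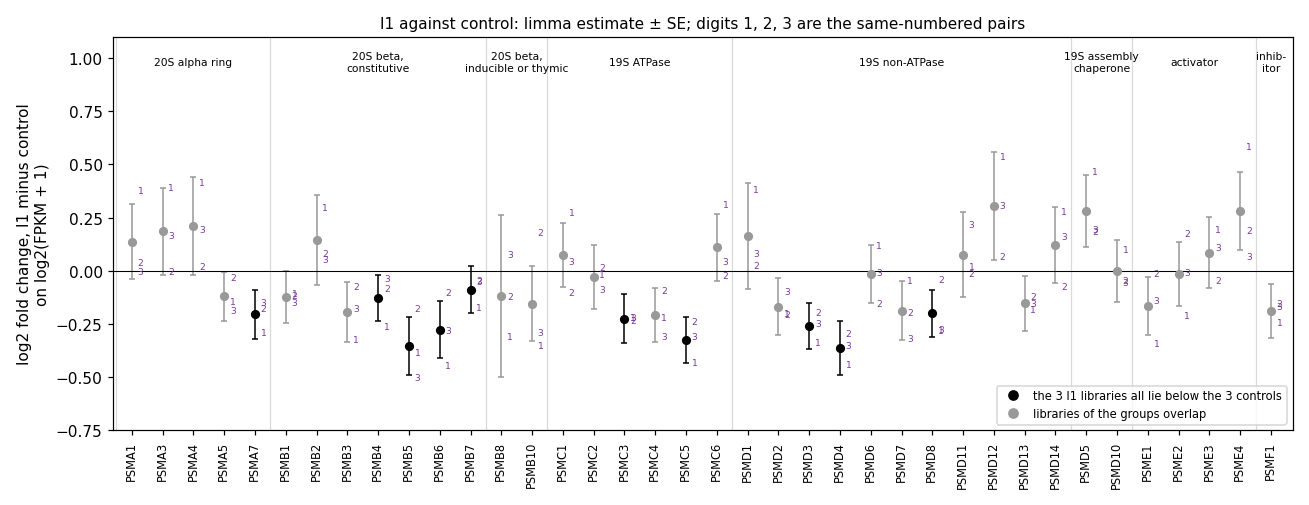
Each point is the log2 fold change of 1 of the 38 tested proteasome genes (I1 minus control, vertical axis), with its standard error as a bar and the 3 same-numbered pairs as digits, grouped by role on the horizontal axis. The 10 genes in black, whose I1 libraries all lie below the controls, have estimates from -0.36 to -0.09.

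Stretches before the start sites of 6 members are printed to show what lies upstream of genes at both ends of this range. They were chosen after the values were seen, as the 3 lowest of the 10 separated genes and the 3 highest estimates that met the conditions here. These were an entry in the table used, on the strand of the gene, and at least 60 bases outside annotated exons. PSMD4 and PSMB6 had no entry. PSMC5, PSMD5 and PSME4 were passed over on the strand or on the number of bases, and which of these applied was not recorded. The sequences come from the RefSeq promoter table, build GRCh38.p14, and run 5′ to 3′ on the strand of the gene. Capitals mark 3 motifs searched on both strands. They are the core of the antioxidant response element, TGACNNNGC, through which NFE2L1 and NFE2L2 act, the CCAAT box, and the ETS motif CCGGAAG.
PSMB5, chr14:23035231-23035380, minus strand: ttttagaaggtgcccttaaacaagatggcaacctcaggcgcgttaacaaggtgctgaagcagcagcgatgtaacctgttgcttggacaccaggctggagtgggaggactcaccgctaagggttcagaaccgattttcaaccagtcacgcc
PSMD3, chr17:39980647-39980796, plus strand: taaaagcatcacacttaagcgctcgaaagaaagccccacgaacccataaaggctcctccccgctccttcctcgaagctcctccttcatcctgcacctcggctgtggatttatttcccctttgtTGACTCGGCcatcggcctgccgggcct
PSMC3, chr11:47426474-47426623, minus strand: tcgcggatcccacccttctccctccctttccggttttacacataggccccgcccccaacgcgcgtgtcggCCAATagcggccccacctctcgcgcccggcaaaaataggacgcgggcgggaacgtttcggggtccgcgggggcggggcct
PSMD12, chr17:67366628-67366777, minus strand: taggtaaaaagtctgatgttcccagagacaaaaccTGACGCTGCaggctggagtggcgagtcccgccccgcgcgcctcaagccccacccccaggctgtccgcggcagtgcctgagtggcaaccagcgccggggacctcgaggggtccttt
PSMA4, chr15:78540255-78540404, plus strand: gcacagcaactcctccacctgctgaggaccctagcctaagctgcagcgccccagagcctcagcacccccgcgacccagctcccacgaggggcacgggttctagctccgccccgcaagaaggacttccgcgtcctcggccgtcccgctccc
PSMA3, chr14:58244681-58244830, plus strand: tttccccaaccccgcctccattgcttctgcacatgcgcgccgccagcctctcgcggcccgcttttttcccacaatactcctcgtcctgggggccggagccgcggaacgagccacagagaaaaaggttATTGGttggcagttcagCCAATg

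In these stretches the antioxidant core stood before PSMD3, among the lower genes, and before PSMD12, the highest estimate. CCAAT boxes stood before PSMC3 and, in a pair, before PSMA3. The table holds 46 windows of 300 bases for 38 of the 43 genes, and the core occurred in 28.3% of them against 13.3% of all 35116 windows. The CCAAT box occurred in 41.3% against 34.6%, and CCGGAAG in 28.3% against 10.3%. Of the 10 separated genes 6 have a window, 2 of which hold the antioxidant core, 5 the CCAAT box and 1 the ETS motif. Counted in the same way by gene, 13 of the 38 members with a window hold the antioxidant core, 19 the CCAAT box and 13 the ETS motif. The shares above are by window and are not comparable with these counts. A match is a description of the sequence, not a binding site.

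The levels themselves spanned a wide range. The 35 genes without the same-strand exon sharing described below, and outside the inducible or thymic subunits, had means over the 6 libraries from 9.40 FPKM for PSMC1 to 113 for PSMA7, a ratio of 12.0, with a median of 28.8. FPKM divides by all annotated exons of a gene, so genes with long rarely used exons come out low. Divided instead by the length of the main transcript (tagged principal by APPRIS in GENCODE release 29), a choice made after the data were seen, the same genes spanned 13.0 to 199 per kilobase, a ratio of 15.3. PSMB4 and PSMA7 were then the highest, at 199.3 and 198.6, and PSMC1 remained the lowest. All proteasome genes together took 0.475%, 0.550% and 0.507% of all FPKM in the controls and 0.461%, 0.530% and 0.463% with I1. That share overlaps between the groups.

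**Figure D2:**
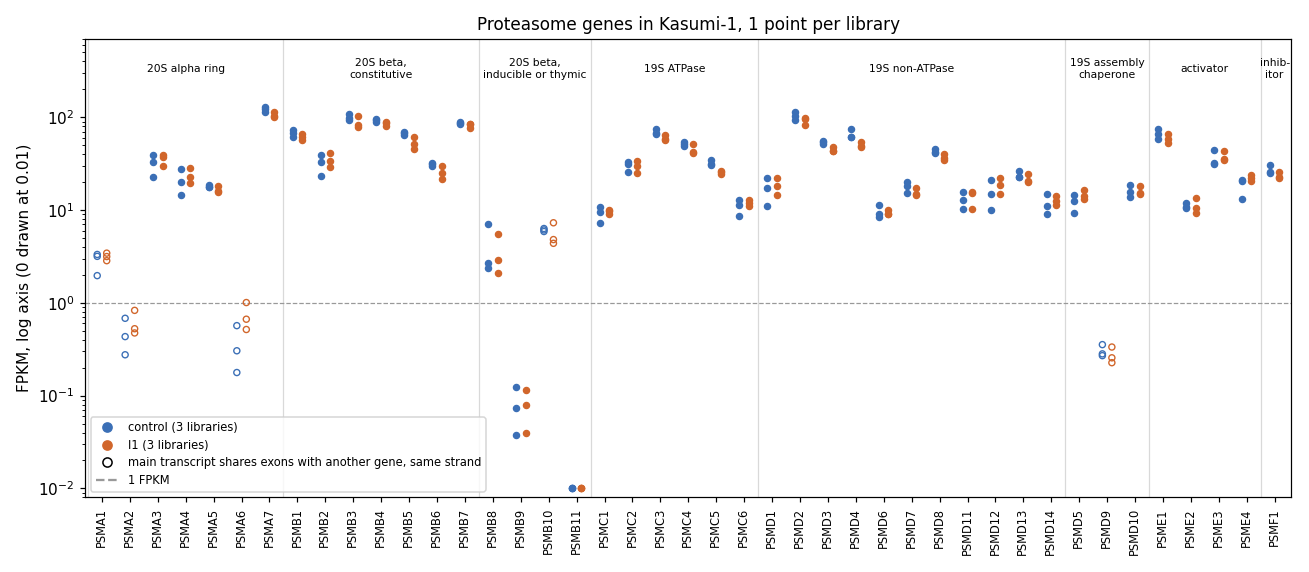
The level of each of the 43 proteasome genes in each library is drawn in FPKM on a log axis, with control in blue, I1 in orange and genes grouped by role. Open circles mark the 5 genes whose main transcript shares exons with another gene on the same strand, with means of 0.287 to 5.79 FPKM, against 9.40 to 113 for the 35 genes outside that set and the inducible or thymic subunits.

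Essential subunits of the alpha ring were among the lowest of all. PSMA6 (ENSG00000100902; hg38 chromosome 14, 35278633 to 35317493, plus strand) had 0.177, 0.568 and 0.304 FPKM in the controls and 0.516, 1.01 and 0.666 with I1, from 21 to 111 reads. PSMA2 had 0.432, 0.681 and 0.276 FPKM against 0.526, 0.829 and 0.474. PSMA1 had 1.96, 3.32 and 3.17 FPKM against 2.85, 3.43 and 3.15, the only 1 of these 3 to be tested (log2 fold change 0.14, limma adjusted p = 0.697). The I1 and control libraries overlap in each of them, while in the same-numbered pairs PSMA6 and PSMA2 were higher with I1 in 3 of 3.

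These 3 genes have an annotation in common. In GENCODE release 29 each overlaps a protein-coding read-through gene of the same strand. The shared bases make up 81.0% of the main transcript of PSMA6, 53.2% of that of PSMA1 and 52.5% of that of PSMA2. PSMB10 (45.3%) and PSMD9 (43.8%), a chaperone of 19S assembly, are the other two members of this kind, and in the 35 genes above the share is at most 0.0712%. PSMD9 had 0.282, 0.270 and 0.354 FPKM in the controls and 0.334, 0.256 and 0.226 with I1, and the groups overlap. Of the read-through genes AL121594.1 over PSMA6, AC010132.3 over PSMA2, AC040162.1 over PSMB10 and AC069503.2 over PSMD9 had levels from 0 to 0.219 FPKM, and AC018523.2 over PSMA1 was not analysed here. The handling of reads in shared exons was not stated in these sources. The part of exon sharing in these levels was not tested. The pattern was noticed after the levels were seen. On the opposite strand, 82.1% of the main transcript of PSMC1 overlaps NRDE2, 50.4% of PSMD7 and 27.2% of PSMC5 overlap other genes, and no source used here gives the use of strand in counting.

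In the alpha ring, which gates the entry to the barrel, 2 of the 5 tested genes lay below 0 and 3 above. PSMA7 (ENSG00000101182; chromosome 20, 62136735 to 62143440, minus strand), the most abundant member by FPKM, had 122, 128 and 114 FPKM in the controls and 99.6, 113 and 102 with I1. All 3 I1 libraries lay below the controls, by a log2 fold change of -0.20 ± 0.116 (SE, limma adjusted p = 0.468). PSMA3 (0.18) and PSMA4 (0.21) had estimates above 0, which went to -0.03 and -0.01 without control replicate 1. PSMA5 was at -0.12. The median of the ring was 0.14, but -0.04 without control replicate 1 and -0.08 after a correction for GC content.

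Of the 7 constitutive beta subunits 6 lay below 0, in all 3 pairs each, PSMB2 (0.14) being the exception. In 4 of the 7 the groups did not overlap, with I1 lower, beside 8.74% of all tested genes. The catalytic subunits are PSMB5, PSMB6 and PSMB7. PSMB5 (ENSG00000100804; chromosome 14, 23016543 to 23035230, minus strand) carries the chymotrypsin-like activity and is the main target of the drug bortezomib. It had 67.4, 69.8 and 64.8 FPKM in the controls and 51.5, 61.6 and 45.5 with I1. Its log2 fold change was -0.35 ± 0.136 (SE). Every I1 library lay below every control, and the gene did not pass over all genes (limma adjusted p = 0.467). PSMB6, of the caspase-like activity, had 30.1, 31.8 and 31.1 FPKM against 21.8, 29.5 and 25.4, a log2 fold change of -0.28. PSMB7, of the trypsin-like activity, had 85.6, 86.6 and 88.5 FPKM against 75.9, 83.9 and 85.5, a log2 fold change of -0.09. Both were separated without overlap, PSMB7 by the narrowest margin of these genes.

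Together the 3 constitutive catalytic genes summed to 183, 188 and 184 FPKM in the controls and 149, 175 and 156 with I1. On that scale even the highest I1 library lies below the lowest control, and the mean with I1 was 0.865 of that in control. Rescaled to TPM the sums were 627.7, 666.4 and 664.7 against 558.2, 638.7 and 561.8, a ratio of 0.898, and the groups overlap, since I1 replicate 2 lies above control replicate 1. Among the structural beta subunits PSMB4 had 95.7, 93.8 and 89.5 FPKM against 79.6, 88.5 and 87.2, again without overlap (log2 fold change -0.13). PSMB3, the most abundant of the ring by FPKM, had 97.9, 108 and 93.6 FPKM against 78.0, 103 and 82.6, and its groups overlap. PSMB1 was at -0.12 and PSMB3 at -0.19.

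The inducible subunits had low FPKM. PSMB8 (ENSG00000204264; chromosome 6, 32840717 to 32844703, minus strand), which replaces PSMB5, had 7.07, 2.36 and 2.68 FPKM in the controls and 5.505, 2.09 and 2.88 with I1. Replicate 1 was the highest library in both groups, and its log2 fold change of -0.12 ± 0.381 (SE) had the widest error of the 38 genes (limma adjusted p = 0.883). At the annotated length these values were not whole reads. At 2006 bases, the shortest length at which they are, they correspond to 258, 82 and 95 reads against 181, 71 and 96. PSMB10, which replaces PSMB7, had 5.87, 6.32 and 6.10 FPKM against 4.38, 7.29 and 4.80, and shares exons as said above. PSMB9, which replaces PSMB6, had 2 to 7 reads a library, or 0.125, 0.0376 and 0.0736 FPKM in the controls and 0.0794, 0.115 and 0.0392 with I1. I1 and control libraries overlap in both PSMB9 and PSMB10.

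The inducible genes amounted to 7.13%, 4.63% and 4.80% of the summed FPKM of their constitutive counterparts in the controls and to 6.68%, 5.43% and 4.94% with I1. These shares overlap, with replicate 1 the highest in each group. PSMB10, which shares exons with another gene, is part of this sum, and the part of that sharing in it was not tested. PSMB9 lies beside TAP1, a transporter of antigen peptides, which had 0.408 to 1.15 FPKM. PSMB11, the subunit of thymic epithelium, had 0 reads in all 6 libraries, and a count of 0 allows up to 3 reads, or 0.0781 to 0.0867 FPKM a library. Such limits cover counting error only.

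**Figure D3:**
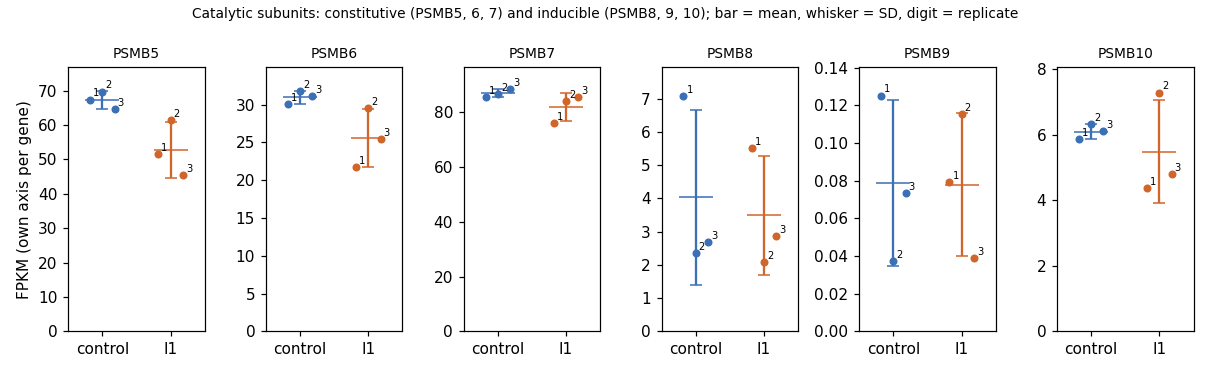
The 6 catalytic subunits are shown in FPKM by library, each gene on its own axis from 0, with the replicate number beside each point, the mean as a horizontal bar and the SD as a whisker (n = 3 each). PSMB5, PSMB6 and PSMB7 lie lower in all 3 I1 libraries, while replicate 1 is the highest point of PSMB8 in both groups.

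Among the 6 ATPases of the 19S base, 4 lay below 0 and 2 above, with a median of -0.12. PSMC5 (ENSG00000087191; chromosome 17, 63827152 to 63832026, plus strand) had 34.5, 31.3 and 30.6 FPKM in the controls and 25.4, 26.4 and 24.5 with I1. Its groups do not overlap, with a log2 fold change of -0.33 ± 0.109 (SE, limma adjusted p = 0.467). PSMC3, the most abundant ATPase, had 66.7, 75.5 and 67.3 FPKM against 57.2, 64.0 and 57.7, also without overlap (log2 fold change -0.22). PSMC1, the lowest, had 7.31, 10.8 and 9.43 FPKM against 9.06, 9.999 and 9.77, and its groups overlap. PSMC4 was at -0.21, PSMC2 at -0.03 and PSMC6 at 0.11.

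The 11 other structural genes of the 19S particle had a median of -0.15, with 7 below 0 and 4 above. PSMD4 (ENSG00000159352; chromosome 1, 151254703 to 151267479, plus strand), a receptor for ubiquitin chains, had 74.6, 61.0 and 61.7 FPKM in the controls and 54.8, 49.6 and 48.1 with I1. Its log2 fold change of -0.36 ± 0.127 (SE) was the lowest of all members, and lower in 3 of 3 pairs (limma adjusted p = 0.467). PSMD3 (ENSG00000108344; chromosome 17, 39980797 to 39997960, plus strand), a scaffold subunit of the lid, had 55.1, 54.4 and 51.6 FPKM against 43.5, 47.3 and 43.4, a log2 fold change of -0.26. PSMD8, also of the lid, had 44.99, 41.1 and 42.2 FPKM against 36.8, 39.9 and 34.7, a log2 fold change of -0.20. None of these 3 genes had overlapping groups.

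PSMD2, a base scaffold and the most abundant of these 11 genes by FPKM, had 94.2, 114 and 103 FPKM in the controls and 81.7, 99.0 and 96.1 with I1, and its groups overlap. PSMD6, the least abundant of the 11 by FPKM, had 8.33, 11.2 and 9.09 FPKM against 9.15, 9.95 and 9.03. PSMD12, a lid subunit with the highest estimate of all members, had 9.94, 20.9 and 14.9 FPKM against 14.9, 21.9 and 18.7. Its log2 fold change was 0.30 ± 0.253 (SE, limma adjusted p = 0.562), higher in 3 of 3 pairs, and it went to 0.05 without control replicate 1, its lowest library. The remaining genes were PSMD7 (-0.19), PSMD13 (-0.15), PSMD11 (0.07), PSMD14 (0.12), which removes ubiquitin, and PSMD1 (0.16), all with overlapping groups.

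The chaperones, activators and the inhibitor overlapped between the groups throughout. PSMD5, a chaperone of 19S assembly, had 9.36, 14.5 and 12.4 FPKM in the controls and 13.3, 16.6 and 14.3 with I1, higher in 3 of 3 pairs (log2 fold change 0.28, limma adjusted p = 0.481). PSMD10, another such chaperone also known as gankyrin, had 13.8, 18.8 and 15.8 FPKM against 14.8, 18.1 and 15.2. PSME1 and PSME2, which form the interferon-inducible PA28 cap, were uneven, and PSME2 amounted to 14.6% to 20.4% of PSME1 in FPKM. Divided by the length of the main transcript, the means were 111 per kilobase for PSME1 and 28.2 for PSME2, which are less far apart. PSME1 had 74.2, 66.6 and 58.6 FPKM against 58.3, 65.9 and 53.0. PSME2 had 10.8, 11.8 and 10.6 FPKM against 9.20, 13.4 and 10.6. Neither differed beyond its spread between libraries.

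PSME3, the nuclear PA28 gamma, had 31.1, 44.4 and 32.2 FPKM in the controls and 35.7, 43.0 and 34.8 with I1. PSME4, the activator PA200, had 13.2, 20.8 and 21.0 FPKM against 20.3, 23.8 and 22.02, higher in 3 of 3 pairs (log2 fold change 0.28, limma adjusted p = 0.499). PSMF1, an inhibitor of the core also called PI31, had 30.6, 25.7 and 25.1 FPKM against 25.7, 22.9 and 22.2, lower in 3 of 3 pairs (log2 fold change -0.19, limma adjusted p = 0.502). The lowest control of PSMF1 lay below I1 replicate 1. The median of the 4 activators, 0.04, went below 0 under TMM scaling (-0.02) and scaling on the median gene (-0.05).

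Taking the replicate number as a block brought the adjusted p of PSMD4, PSMB5 and PSMC5 from 0.467 to 0.140 and that of PSMD3 to 0.144, and none passed. With protein-coding genes tested alone and the block as well, a setting chosen after the data were seen, PSMD4 (limma adjusted p = 0.0407) and PSMB5 (0.0468) passed, both lower. In that setting 6.31% of 9858 genes passed, and 1.54% in the lower direction. Over all settings the adjusted p of PSMD4 ranged from 0.0407 to 0.948 and that of PSMB5 from 0.0468 to 0.948. Both highest values came with the correction for GC content, whose log2 fold changes were -0.28 for PSMD4 and -0.30 for PSMB5.

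The estimates of the members moved with the GC content of their transcripts, here that of the longest annotated transcript. Of the 14 tested genes with at least 50% GC, 14 lay below 0, with a median of -0.20. Of the 10 from 45% up to 50%, 6 lay below 0, and of the 14 under 45%, 5 did, with a median of 0.13. These limits were set after the values were seen. Across the 38 genes, which share libraries and are not replicates, Pearson's r between log2 fold change and GC was -0.663 and Spearman's rho -0.690. Across the 11899 tested genes with a GC value the same measures were -0.678 and -0.753. GC-rich members were also higher in control replicate 1 than in the other controls (r 0.580 across the 38 genes), and without that library r between log2 fold change and GC was -0.406. The part of GC content and of this library in the members' estimates was not tested beyond these values.

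A correction of each library for its trend with GC changed which members were low. The median of the members was then -0.09, with 28 of 38 below 0, and 15 had I1 libraries wholly below the controls, against 0 above. Among all genes tested after the correction 5.87% were separated in the lower and 5.19% in the higher direction. PSMA5 went from -0.12 to -0.48, PSMB1 from -0.12 to -0.38 and PSMD14 from 0.12 to -0.37, all GC-poor genes. PSMA7, PSMB6, PSMB7, PSMC3 and PSMD8 no longer had separated groups, whereas PSMD4, PSMB5, PSMC5, PSMD3 and PSMB4 did. After the correction r was 0.359, so that the sign of the relation turned over. With the correction 11 of the 38 members had an unadjusted p under 0.05, beside 5.15% of all genes. The smallest adjusted p of a member with the correction was 0.895, and 0.226 with the block as well.

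**Figure D4:**
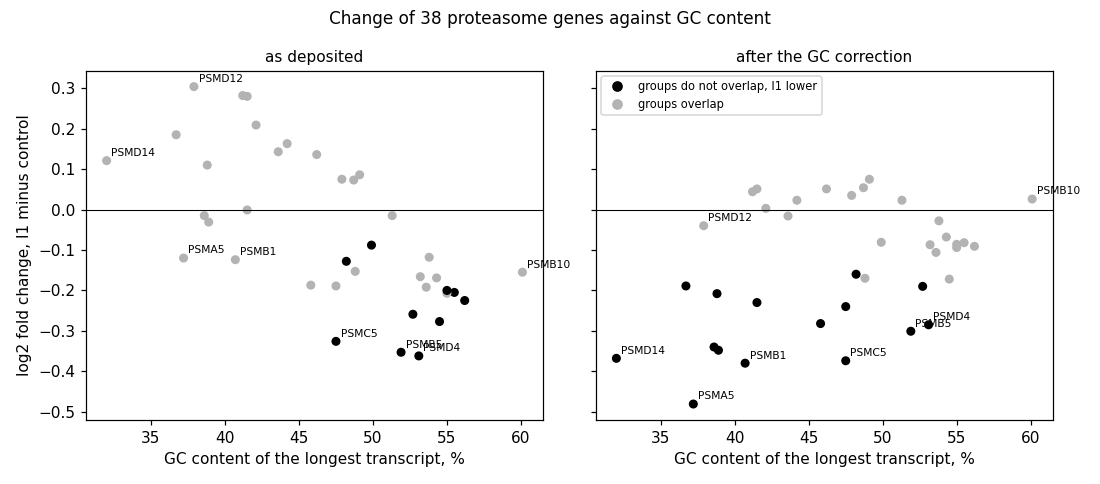
The log2 fold change of the 38 tested proteasome genes (I1 minus control, vertical axes) is plotted against the GC content of the longest transcript in percent, as deposited on the left and after the GC correction on the right. On the left all 14 genes with at least 50% GC lie below 0, and on the right the black points, whose I1 libraries all lie below the controls, number 15 and reach down to 32.0% GC.

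Genes that build, assist or regulate the proteasome were listed separately, 36 in all, and all were tested. By limma 0 passed in either direction, with 1 at an unadjusted p under 0.05. The 6 chaperones of core assembly had a median log2 fold change of 0.01, or -0.05 under TMM scaling, and no separated groups. PSMG1, the most abundant by FPKM, had 25.4, 31.6 and 24.6 FPKM in the controls and 26.7, 29.04 and 26.4 with I1. For the 9 proteasome-associated genes the median was 0.10, and -0.03 after the GC correction. ECPAS, an adaptor of the 26S proteasome and the most abundant of these, had 30.4, 36.1 and 37.2 FPKM against 39.4, 37.5 and 39.5, the 1 related gene whose I1 libraries all lay above the controls (log2 fold change 0.17), a separation that 12.9% of all tested genes had. It ended under TMM scaling and under the GC correction, with estimates of 0.11 and 0.06.

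Of the 14 ubiquitin genes and shuttle factors, 10 lay below 0, with a median of -0.05. Of these 14, 4 were separated with I1 lower, beside 8.74% of all tested genes. UBA1, the main ubiquitin-activating enzyme, was at -0.24, and UBQLN4, a shuttle factor that carries ubiquitinated proteins to the proteasome, was at -0.19, 2 of the separated genes. Under TMM scaling both stayed separated, at -0.30 and -0.25. After the GC correction neither was separated, with estimates of -0.10 and -0.06. Of the 14, 3 were then separated with I1 lower, beside 5.87% of all genes. RPS27A, a ubiquitin fusion gene and the most abundant of the list, had 219.8 to 304.5 FPKM and an estimate of -0.005. Among the 7 regulators, with a median of 0.09, NFE2L1, the factor that restores proteasome genes when the proteasome is inhibited, had 49.7, 44.3 and 49.5 FPKM against 42.7, 43.0 and 46.2, and its groups overlap.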

How the data were processed

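Libraries were made with a stranded mRNA kit from Trizol-extracted RNA, per the labels' protocols. The build hg38 and the tools Trimmomatic, HISAT2, Cufflinks and HTSeq are named per the submitters' processing notes, with roles, versions and annotation not given in the sources used here. For 6 libraries the authors deposited FPKM values in 1 table. That table is named after different cell lines and a different agent; it was used because each of its column names matches 1 of these sample titles, and what the values are rests on this match. With exon lengths of GENCODE release 29, whose 1-based coordinates are printed for genes, 95.9% of genes gave whole reads within 0.05 reads. This gave the scaling totals, and 71 to 10813 reads behind each tested member's values.

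The groups were compared with limma 3.58.1 (R 4.3.3, Python 3.11.15), with an intensity trend, on log2(FPKM + 1), which understates changes of low genes. The 11913 genes that reached 1 FPKM in 3 or more libraries were tested. P-values were 2-sided and Benjamini-Hochberg adjusted over all of these, with a threshold of 0.05. No label says that samples came from separate cultures, so the spread that p-values measure may be technical. The titles number the samples. Deviations from group means correlated at 0.476, 0.457 and 0.412 between same-numbered samples, which were taken as pairs. The main fit held no term for the pairs, so its p-values are unpaired. The pairs entered only the values per pair and the settings with the replicate block. The GC correction subtracted, per library, a lowess fit (span 0.3). Other settings were other pseudocounts, filters, scalings, array weights and leaving out each library. The fit was tested on simulated data. How it performs at log2 fold changes as small as those of the members was not tested. The members follow the symbol rule, and they and all lists were chosen with earlier results of these data known. Values in every library are given for the catalytic subunits, activators, PSMF1, the highest and lowest tested member of each role group by mean FPKM, members with separated groups and members not tested. A related list is named by its passing or separated members and its highest. HBB, MS4A1 and COL1A2 were not analysed here. Some genes of the fixed lists are not reported here by name.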

Additional observations from a re-analysis of the deposited data

How the results depend on the processing

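Depth limited PSMB9 and PSMB11, whose changes were not detectable at 0 to 7 reads. Over 19 other settings for the 38 genes, 671 of 720 estimates kept their direction and their side of the threshold, 47 changed direction and 2 newly passed; 21 genes never changed direction. With protein-coding genes tested alone and the replicate block, chosen after the data were seen, 2 proteasome genes and 1 ubiquitin gene passed; the replicate block changed no other call. Medians that moved by more than the spread of the pair medians were as follows. Without a filter they were -0.061 for all members and -0.001 for 19S chaperones, and with a mean of at least 5 FPKM 0.21 for regulators. With scaling on the median gene they were -0.20 for all members, -0.22 for constitutive beta subunits, -0.21 for ATPases, -0.24 for non-ATPases, -0.052 for activators, -0.081 for core chaperones, -0.14 for ubiquitin genes and 0.002 for regulators; PSMC1, PSMD11 and PSME3 changed direction to -0.010, -0.011 and -0.005. With TMM scaling they were -0.18 for ATPases, -0.21 for non-ATPases, -0.020 for activators, -0.048 for core chaperones and -0.11 for ubiquitin genes. With the GC correction, and equally with the replicate block added to it, they were -0.15 for ATPases, -0.093 for 19S chaperones, -0.025 for proteasome-associated genes and -0.12 for ubiquitin genes; PSMA3, PSMB2, PSMB10, PSMC6, PSMD12, PSMD14 and PSME2 changed direction to -0.19, -0.016, 0.026, -0.21, -0.040, -0.37 and 0.023. Quantile normalization gave -0.070 for non-ATPases. Array weights gave -0.105 for non-ATPases and -0.11 for ubiquitin genes, with PSMB8, PSMD6 and PSME2 at 0.146, 0.008 and 0.030. In TPM the ratio of I1 to control was 0.9485 for the 20S core without inducible subunits, 0.925 for the 19S particle and 0.9488 for all members. The cause of these shifts was not tested.

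Leaving out 1 library at a time, the number of separated members ranged from 10 to 19 lower (19 without I1 replicate 2) and from 0 to 3 higher (3 without control replicate 2). Smaller groups separate more easily, and the shares of all tested genes in these settings are not given here. The median ranged from -0.154 to -0.052 for all members, -0.241 to 0.052 for inducible subunits, -0.200 to -0.046 for ATPases, -0.222 to -0.084 for non-ATPases, 0.010 to 0.260 for 19S chaperones, -0.079 to 0.136 for activators, -0.034 to 0.072 for core chaperones, -0.123 to -0.010 for ubiquitin genes and 0.061 to 0.215 for regulators. The genes that changed direction ranged from -0.037 to 0.235 for PSMA1, -0.030 to 0.353 for PSMA3, -0.011 to 0.432 for PSMA4, -0.056 to 0.310 for PSMB2, -0.421 to 0.281 for PSMB8, -0.066 to 0.187 for PSMC1, -0.139 to 0.071 for PSMC2, -0.038 to 0.228 for PSMC6, -0.094 to 0.375 for PSMD1, -0.098 to 0.095 for PSMD6, -0.073 to 0.251 for PSMD11, -0.028 to 0.295 for PSMD14, -0.102 to 0.108 for PSMD10, -0.152 to 0.099 for PSME2 and -0.007 to 0.245 for PSME3. The change of direction of PSMA1, PSMA3, PSMA4, PSMB2, PSMC1, PSMC6, PSMD1 and PSMD14 came without control replicate 1.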
